A study of Mus musculus with 24 samples.

Results

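Open chromatin was followed at 10 genes of the retinoic acid pathway by ATAC-seq, in which the Tn5 transposase cuts and tags accessible DNA, while mouse embryonic stem cells differentiated towards cardiomyocytes. The genes encode 3 enzymes of synthesis (Aldh1a1, Aldh1a2 and Aldh1a3), 4 nuclear receptors (Rara, Rarb, Rarg and Rxra) and 3 enzymes of degradation (Cyp26a1, Cyp26b1 and Cyp26c1), out of 21631 protein-coding genes. A peak was counted for a gene if its summit lay inside the gene body on mm10, or, outside every protein-coding gene, if that gene body was the nearest within 50 kb. This gave 524 of the 518537 summits in all. Peak intervals of all lists that overlapped were merged, and the 524 summits fell into 123 of 128679 merged regions, called sites below. No site was shared between the 10 genes.

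The cells were of the A2lox.cre line, an established mouse embryonic stem cell line built for the insertion of inducible transgenes. The 24 samples are pairs of biological replicates (2 per stage) from 12 stages: the 2i stage, in which inhibitors hold stem cells in the naive state, each day from D0 (day 0) to D8, then D10 and D15. The labels call D10 and D15 cardiomyocyte, D0 to D8 intermediates of cardiac differentiation and the 2i stage embryonic stem cells. No genotype other than the line and no added agent is labelled. Whether retinoids were in the medium is not given in the sources used here.

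Each time point has 1 peak list, named for both replicates, so no value has a replicate spread and no difference between 2 lists was tested. The lists held 31324 peaks at D1 to 66993 at D7. At a given fold enrichment (4.9 to 5.1), the median −log10 p, which grows with the background coverage, was lowest at 2i (7.69) and D4 (7.71) and highest at D3 (11.6) and D15 (11.5). Counts per list moved with list length, as values with 31324 peaks from each list show below, and the part of this weight in them was not tested. A site that is not called in a list is not shown to be closed. Of the labelled cell types' markers, all 5 pluripotency genes with an annotated start had a summit within 1 kb of one at 2i, against 1 of 5 at D15. The course between was uneven, with 2 at D0, 4 at D1, 5 at D2 and D3, 3 from D4 to D8 and 2 at D10. The stem cell gene still called at D15 was Tfcp2l1. Of 6 cardiomyocyte genes 2 had one at D10 and D15, Tnnt2 and Actn2, against 4 at D5, D7 and D8 and 1 at 2i, and the Actn2 start was called in every list. The start of the cardiac myosin gene Myh6 was called in no list. The starts of all 3 epicardial and fibroblast markers with an entry (Tbx18, Tcf21 and Col1a2) were called at D10 and D15, against 1 of 3 at 2i. The endothelial gene Kdr had a called start in every list, and of the neural genes Sox1 did too, while Pax6 had one at D2 to D4, D7 and D8. Of the endoderm genes the start of Foxa2 was called in 11 lists and that of Afp in none. The part of such cells in the lists was not tested.

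Retinoic acid is made from vitamin A in steps that end with the retinaldehyde dehydrogenases of the Aldh1a family. It binds heterodimers of a retinoic acid receptor (RAR) and a retinoid X receptor (RXR), which sit on response elements in DNA, typically direct repeats of a half-site related to AGGTCA. Enzymes of the Cyp26 family oxidise it and so limit where it acts. In the embryo the pathway patterns the anterior-posterior axis of the heart field, and Aldh1a2 is its main source of retinoic acid in mesoderm and later in the epicardium. Rarb and Cyp26a1 are classical direct targets of the receptors.

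Both of these targets matched a response element at their starts. A direct repeat with a spacer of 5 bases (DR5, with half-sites of A or G, then G, then G or T, then TCA) was searched on both strands in 21045 promoter windows of protein-coding genes. The windows run from 250 bases before to 50 after an annotated start, from RefSeq on GRCm38.p6, the assembly that mm10 names. A match was found in 17 windows, 0.0808% of all. The 15 windows of 9 of the 10 genes held 2 of the 17, at Rarb and at Cyp26a1, and Aldh1a3 had no entry. Repeats with spacers of 2 bases or 1 base (DR2 and DR1) had no match in the 15 windows, against 0.0903% and 0.185% of all windows. The plain half-site AGGTCA was in 3 of 15, at 1 window each of Rara, Rarg and Rxra, against 14.6% of all windows.

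The 250 bases before 5 starts are shown 5′ to 3′ along the gene, because they hold the response elements or because their starts were called in different sets of lists. Capitals mark the DR5 repeats of Rarb and Cyp26a1 and a half-site of Rarg on the opposite strand. The positions are chr14:16575477-16575726 (minus strand) for Rarb, chr19:37697558-37697807 (plus) for Cyp26a1, chr15:102257523-102257772 (minus) for the first start of Rarg, chr9:71215539-71215788 (plus) for Aldh1a2 and chr19:20601718-20601967 (plus) for the second start of Aldh1a1.
Rarb: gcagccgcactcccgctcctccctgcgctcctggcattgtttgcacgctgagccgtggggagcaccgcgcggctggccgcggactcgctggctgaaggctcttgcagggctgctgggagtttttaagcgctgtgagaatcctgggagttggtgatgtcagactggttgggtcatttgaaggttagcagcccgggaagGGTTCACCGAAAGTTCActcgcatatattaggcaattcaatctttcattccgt
Cyp26a1: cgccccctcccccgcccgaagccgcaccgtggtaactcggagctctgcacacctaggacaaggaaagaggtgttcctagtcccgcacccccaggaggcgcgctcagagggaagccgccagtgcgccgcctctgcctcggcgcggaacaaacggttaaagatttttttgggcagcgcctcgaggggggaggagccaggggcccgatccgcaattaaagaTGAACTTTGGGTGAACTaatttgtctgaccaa
Rarg, first start: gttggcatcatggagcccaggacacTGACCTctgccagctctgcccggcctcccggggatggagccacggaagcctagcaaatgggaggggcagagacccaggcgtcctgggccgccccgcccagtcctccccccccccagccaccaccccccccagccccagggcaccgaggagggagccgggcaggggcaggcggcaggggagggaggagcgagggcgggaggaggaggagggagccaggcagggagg
Aldh1a2: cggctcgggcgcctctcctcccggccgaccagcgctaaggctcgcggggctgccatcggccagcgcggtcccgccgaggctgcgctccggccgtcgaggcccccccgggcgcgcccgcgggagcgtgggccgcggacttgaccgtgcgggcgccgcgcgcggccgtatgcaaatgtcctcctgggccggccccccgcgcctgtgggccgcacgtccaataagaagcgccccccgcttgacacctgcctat
Aldh1a1, second start: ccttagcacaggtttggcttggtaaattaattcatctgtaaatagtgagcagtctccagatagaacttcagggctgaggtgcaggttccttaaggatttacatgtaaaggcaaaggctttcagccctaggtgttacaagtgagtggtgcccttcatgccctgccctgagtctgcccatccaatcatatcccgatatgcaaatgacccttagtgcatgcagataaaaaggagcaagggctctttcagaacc

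The Rarb repeat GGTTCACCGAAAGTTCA lies 53 to 37 bases before the start (chr14:16575513-16575529). A peak interval covered it in all 12 lists, with the nearest summit 6 to 115 bases away (median 47). The Cyp26a1 repeat lies 32 to 16 bases before the start (chr19:37697776-37697792) and reads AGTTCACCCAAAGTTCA on the strand opposite to the gene. A peak interval covered it in 7 lists, at 2i, from D2 to D6 and at D8, with the nearest summit 7 to 282 bases away (median 36). No interval covered it at D0, D1, D7, D10 or D15. The element of Rarb thus lay in called chromatin from the 2i stage on, and that of Cyp26a1 in part of the course. A match is a run of letters and does not show that a receptor was bound.

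Starts of the pathway genes ranged from always to never called. A start counts as called if a summit lay within 1 kb. Of the 15 annotated starts, 5 were called in all 12 lists (33.3%, against 45.9% of 21045 starts of protein-coding genes) and 4 in none (26.7%, against 30%). The 5 always-called starts were those of Aldh1a2 and Rarb, the second of Rarg, and a pair of Rara starts 22 bases apart that share a peak. The 4 never-called starts were those of Cyp26b1 and Cyp26c1, the third of Rara and the second of Rxra. The first Rxra start was called from D0 on, in 11 lists, and the first Rarg start from D1 on, in 10. The Cyp26a1 start was called at 2i, from D2 to D8 and at D15. The second Aldh1a1 start was called from D3 to D5, at D7, D8, D10 and D15, the fourth Rara start in 6 lists, and the first Aldh1a1 start at D15.

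The 250 bases before the always-called starts held 10 to 40 CpG dinucleotides (median 13), those before the 6 starts called in 1 to 11 lists 1 to 40 (median 8.5), and those before the never-called starts 1 to 7 (median 2.5). The classes overlap: the first Rxra start, called in 11 lists, has 40 CpGs, the Cyp26a1 start, called in 9, has 20, and the always-called second Rarg start has 10. Over all protein-coding genes the medians were 18 for the 9661 always-called, 8 for the intermediate and 2 for the 6309 never-called starts, the same order. The Aldh1a2 sequence above has 40 CpGs and 77.6% G and C, and the second Aldh1a1 start has 1 CpG and 46.4%. The first Aldh1a1 start, called at D15, has 3 CpGs and 42.8%.

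**Figure D1:**
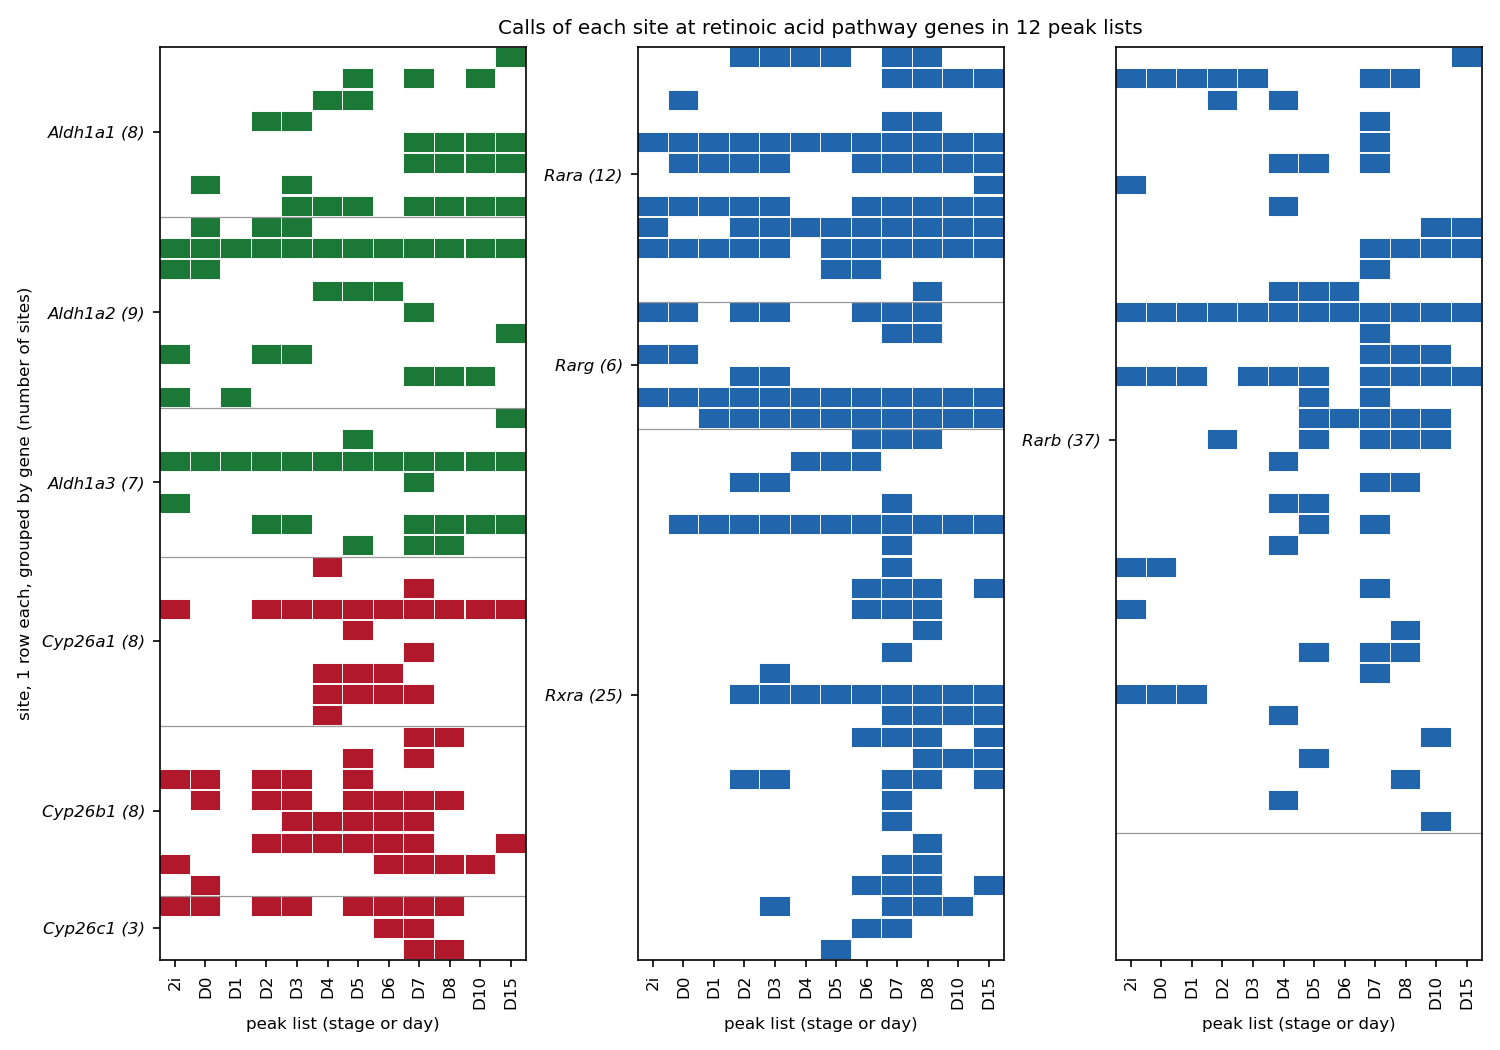
Each row is 1 of the 123 sites, grouped by gene with the number of sites in brackets and ordered by coordinate, and each column is a peak list from 2i to D15. A filled cell means that the list has a summit of that gene in the site (green synthesis, red degradation, blue receptors), and 5 rows are filled throughout.

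Most sites were called for a short time. A site was called in a median of 2 of 12 lists, the same as for all 95350 regions near protein-coding genes by the same rule. Of the 123, 45 (36.6%) were called in 1 list, against 39.8% of all such regions, and 5 (4.07%) in all 12, against 11.4%. The 5 lay at Aldh1a2, Aldh1a3, Rara, Rarb and Rarg, 1 at each, and 4 of them were within 1 kb of an annotated start. The constant site of Aldh1a3, which has no entry among the starts, lies across the right end of the gene body. Over all sites 11 (8.94%) were within 1 kb of a start, against 13.1% of all regions.

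Late-gained sites were defined as called at both D10 and D15 and at neither 2i nor D0. There were 11 (8.94%), against 4.1% of all regions near protein-coding genes, at 6 of 10 genes, against 15.7% of the 19124 protein-coding genes with a region. Aldh1a1 and Rxra had 3 each, Rarb 2, and Aldh1a3, Rara and Rarg 1 each. Early-lost sites, called at both 2i and D0 and at neither D10 nor D15, numbered 8 (6.50%), against 8.76%, at 5 of 10 genes, against 27.5%. Rarb had 3 and Rarg 2, and Aldh1a2, Cyp26b1 and Cyp26c1 had 1 each. By this definition an early-lost site can still be called at D8, as sites of Rarb, Rarg and Cyp26c1 were. Transient sites, which 2 or more neighbouring lists between D1 and D8 called but 2i, D0, D10 and D15 did not, numbered 26 (21.1%), against 15.7%. All 10 genes had at least 1, against 39.2% of genes. The corresponding counts were 5 of 10 genes, against 58.1%, for a site in all lists and 8 of 10, against 63.3%, for a site in 1 list. Longer genes hold more regions, and the part of gene length in these counts was not tested. Of the 123 sites 28 belonged to no class. The count of transient sites rested in part on the D7 list, the longest, without which it was 16. Under a strict threshold, which keeps peaks whose −log10 q reaches 5, late-gained sites numbered 5 and early-lost sites 2, of 78 sites. The shares of all regions under that threshold were not computed.

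**Figure D2:**
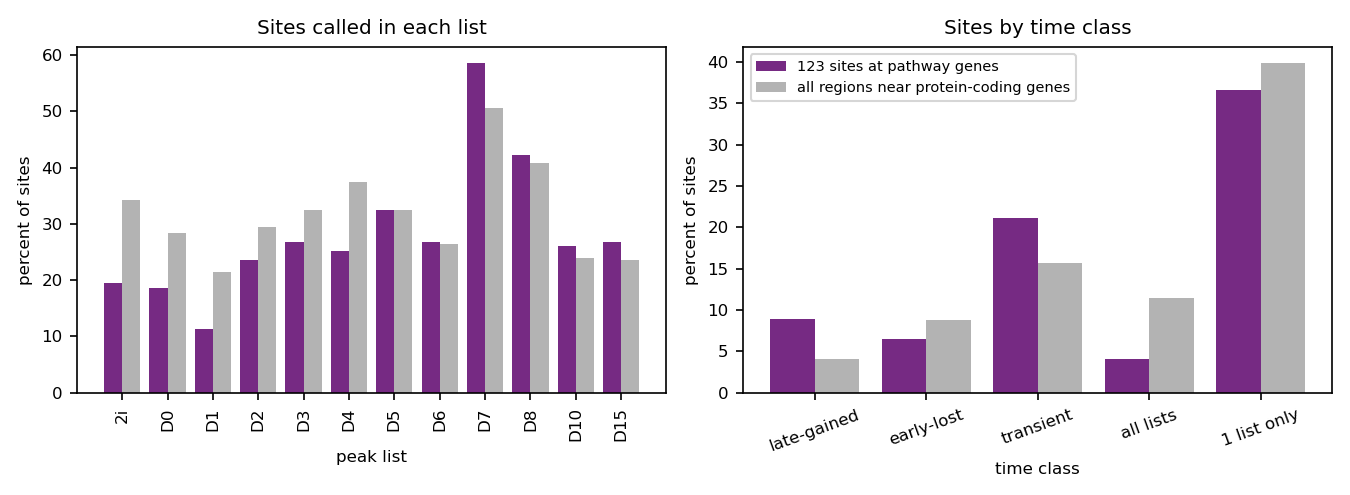
Percent of the 123 sites (purple) and of all 95350 regions near protein-coding genes (grey) that were called in each list (left) and that belong to each time class (right). Purple is below grey from 2i to D4 and above it from D5 to D15, with the closest bars at D5 and D6 (with equal numbers of peaks per list it is below in every list except D15), and the late-gained and transient classes hold 8.94% and 21.1% of the sites, against 4.1% and 15.7%.

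List by list, the share of sites that was called lay below that of all regions from 2i to D4 and at or above it from D5 on. At 2i 24 of 123 were called (19.5%, against 34.3% of all regions near protein-coding genes), at D0 23 (18.7%, against 28.4%) and at D1 14 (11.4%, against 21.4%). At D2 29 were called (23.6%, against 29.4%), at D3 33 (26.8%, against 32.5%) and at D4 31 (25.2%, against 37.4%). At D5 40 were called (32.5%, against 32.4%) and at D6 33 (26.8%, against 26.4%). At D7 72 were called (58.5%, against 50.7%) and at D8 52 (42.3%, against 40.9%). At D10 32 were called (26.0%, against 24%) and at D15 33 (26.8%, against 23.6%). With the same number of peaks from each list, 31324, 79 sites and 61679 regions were left, and D7 and D8 no longer stood out. In list order 13, 11, 14, 18, 30, 14, 27, 30, 23, 24, 27 and 25 of the 79 sites were then called. The share was 29.1% at D7, against 39.7% of regions, 30.4% at D8, against 38.6%, 34.2% at D10, against 35.6%, and 31.6% at D15, against 31.4%. The shares of sites were then below those of regions in every list except D15. No test of these differences was made, since the genes were chosen with earlier results known.

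**Figure D3:**
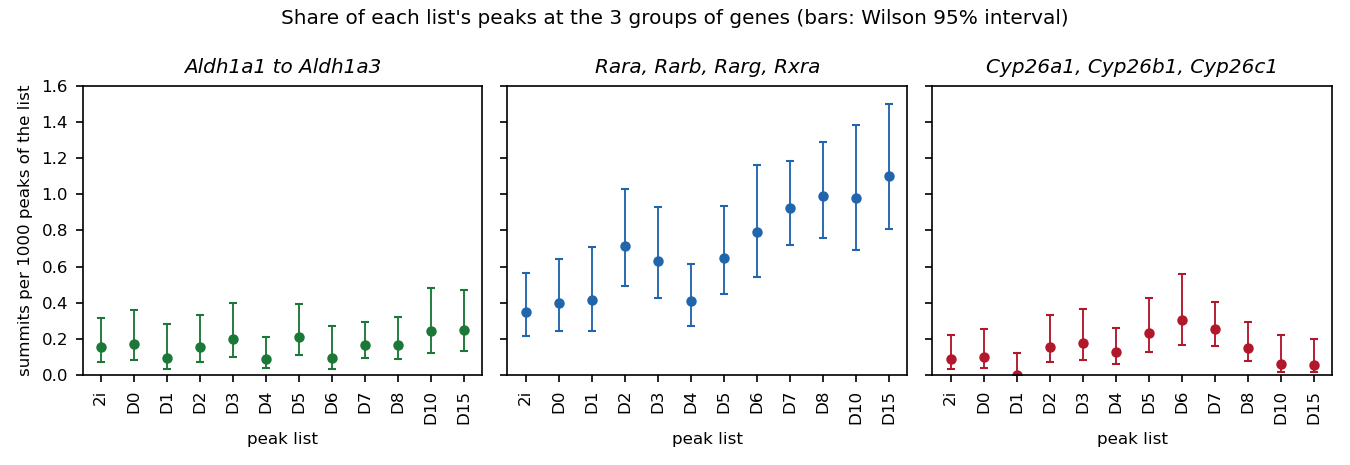
Summits per 1000 peaks of each list at the synthesis genes (left), the receptor genes (middle) and the degradation genes (right), with Wilson 95% intervals that cover counting error only. Receptor genes sit between 0.348 at 2i and 1.10 at D15, and degradation genes are highest at D6 with 0.305.

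Series of 12 values below run in list order (2i, D0 to D8, D10, D15). Receptor genes had 0.348, 0.396, 0.415, 0.712, 0.628, 0.410, 0.646, 0.793, 0.925, 0.988, 0.980 and 1.10 summits per 1000 peaks. Part of this course came from more summits per site. Counted as sites, the receptor genes had 0.304 per 1000 peaks in the 2i list and 0.716, 0.709, 0.674 and 0.607 in the 4 lists from D7 on, with 1.14 summits per called site at 2i and 1.82 at D15. Wilson intervals cover counting error only and take summits of 1 site as independent, so they give no test between lists. Degradation genes had 0.0869, 0.0991, 0, 0.153, 0.176, 0.125, 0.231, 0.305, 0.254, 0.149, 0.0613 and 0.0552. The 0 of D1 is out of 31324 peaks and has a Wilson upper bound of 0.123. The highest value was that of D6, also counted as sites (0.274 per 1000 peaks). Synthesis genes lay between 0.0892 at D4 and 0.248 at D15.

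The fold enrichments below are the authors' own values per peak, taken for the summit with the highest value of a list in a site. They describe a peak within its list and were not compared between lists.

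Aldh1a2, the main embryonic retinaldehyde dehydrogenase (chromosome 9, 71215789 to 71296243, 80.5 kb), had 9 sites. The one at its start (chr9:71215253-71216871) was called in every list, with fold enrichments of 4.87, 6.33, 5.23, 6.38, 14.1, 4.96, 9.26, 8.20, 9.69, 8.55, 5.25 and 9.29. It passed the strict threshold in every list. The other sites were called in fewer lists. One 11.7 kb into the gene (chr9:71227291-71227930) was called at 2i (9.41) and D0 (4.01) and in no later list. Another, 14.4 kb into the gene (chr9:71230026-71230326), was called at D4 (5.34), D5 (4.63) and D6 (5.84) and in no other list. A site 25.7 kb right of the gene (chr9:71321666-71322152) was called at D7 (3.07), D8 (4.87) and D10 (4.17). The site 24.3 kb right of the gene was called at 2i, D2 and D3, that 19.3 kb left of it at D0, D2 and D3, and that 35.5 kb right at 2i and D1. The last 2 sites were called in 1 list each, at D7 and at D15. Under the strict threshold the site 11.7 kb into the gene was called at 2i only and that 25.7 kb right at D8 only. The site 19.3 kb left was then called at D3 only, and that 35.5 kb right and the last 2 in no list. The sites 14.4 kb into the gene and 24.3 kb right kept all their lists. Apart from the start, no Aldh1a2 site was called both before D4 and after D3.

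Aldh1a1, a related dehydrogenase (chromosome 19, 20492583 to 20643463, 151 kb), had no site at 2i, D1 or D6 and 1 at D0. It had 3 or 4 sites in each list from D7 on. Of its 8 sites 3 were late-gained. One lies 21.3 kb into the gene (chr19:20513470-20514151), with fold enrichments of 6.77, 3.69, 2.85 and 3.52 in the 4 lists from D7 on. One lies 44.1 kb into the gene (chr19:20536375-20536888), with 7.81, 3.69, 3.42 and 6.72 in those lists. The third covers the second annotated start (chr19:20601573-20602217), with 3.73, 4.19 and 8.29 from D3 to D5 and 5.21, 3.16, 3.70 and 4.16 from D7 on. The first site passed the strict threshold at D7, the second at D7 and D15 and the third at D5 and D7. With equal numbers of peaks per list the first was called at D7 only. The second was then called at D7, D10 and D15 and the third at D5, D10 and D15. Of the other 5 sites, 2 were transient (D4 and D5, and D2 and D3), 2 fell in no class, and 1, at the first start, was called at D15.

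Aldh1a3, the third dehydrogenase (chromosome 7, 66390892 to 66427477, 36.6 kb), had 7 sites. The constant one (chr7:66426750-66428153) had fold enrichments of 5.50, 5.84, 4.11, 7.81, 9.89, 5.34, 7.82, 7.03, 8.04, 5.85, 3.89 and 5.12. A site 22.9 kb right of the gene (chr7:66450152-66450793) was called at D2 (5.37), D3 (6.46), D7 (4.88), D8 (3.35), D10 (2.85) and D15 (3.56). It is late-gained by definition, although it was first called at D2. It passed the strict threshold at D2, D3 and D7 and not at D10 or D15. With equal numbers of peaks per list it was called at D2 and D3 only. Of the rest, 4 were called in 1 list each and 1 was transient (D5, D7 and D8).

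Rara, the most broadly expressed RAR gene (chromosome 11, 98927800 to 98974942, 47.1 kb), had 12 sites, 5 of them called in over 6 lists. The site at its first starts (chr11:98937117-98938361) was called throughout, with 3.60, 3.54, 4.26, 5.04, 11.9, 5.20, 6.76, 10.2, 5.66, 6.67, 6.37 and 4.41. A further 4 sites inside the gene were called in 9 to 11 lists, among them chr11:98963137-98964817 in every list except D4 and chr11:98954255-98955294 in every list except D4 and D5. A site 1.59 kb left of the gene (chr11:98925184-98926465) was transient, from D2 to D5 and at D7 and D8. A site inside it (chr11:98929400-98930412) was called from D7 on and passed the strict threshold at D7 and D8 only. In all, 29 Rara summits also lie inside the predicted gene Gm46294 and cannot be told apart from it.

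Rarb, the receptor gene with the response element (chromosome 14, 16430839 to 17082331, 651 kb), had the most sites, 37, of which 19 were called in 1 list. It is by far the longest of the 10 genes, and its annotated start lies well inside the gene body. The site over the repeat (chr14:16574936-16575893) had 6.55, 6.64, 8.32, 7.26, 9.22, 6.90, 10.0, 6.80, 10.0, 9.60, 8.07 and 7.35, and it passed the strict threshold in every list. A site 22.8 kb before that start (chr14:16597937-16598767) was called in 10 lists, all except D2 and D6. Inside the gene, 141 kb after the start, chr14:16434322-16435176 was called without a gap from 2i to D3 (6.27, 7.29, 7.59, 9.04 and 11.6 in list order) and then at D7 (3.61) and D8 (3.22). The site chr14:16970896-16972009, 396 kb before the start, was called at 2i (7.07), D0 (6.82) and D1 (6.35). The third early-lost site was called at 2i and D0.

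Rarb sites of the middle of the course lay on both sides of the start. The one 5.58 kb after it (chr14:16569553-16570152) was called at D4 (5.09), D5 (5.72) and D6 (4.52), the one 163 kb before it at D4 (6.96) and D5 (3.70), and the one 91.4 kb after it at D4, D5 and D7. A site 323 kb before the start (chr14:16897854-16898599) was called at D5 (3.39), D7 (10.4) and D8 (6.03). The 2 late-gained sites lie 20.7 kb (from D7 on) and 27.7 kb (D10 and D15) after the start. The nearer one passed the strict threshold in no list and the farther one at D15 only.

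Rarg (chromosome 15, 102234938 to 102257522, 22.6 kb), the third RAR gene, had 6 sites, all inside the gene or across its end. Its annotated starts were called over different spans. The site at the second start (chr15:102245945-102248128) was called in every list, with 4.96, 3.31, 4.21, 5.02, 8.91, 4.19, 7.51, 8.37, 5.68, 4.95, 5.67 and 5.61. The site at the first start (chr15:102256571-102258576) was not called at 2i or D0. From D1 on it had 2.90, 4.65, 9.50, 3.11, 5.41, 4.95, 4.56, 4.82, 3.37 and 4.68. It passed the strict threshold at D2, D3, from D5 to D8 and at D15. It is late-gained by definition, although it was first called at D1. Between the starts and the other end, 1 site was called at 2i and D0 only, 1 at D2 and D3 only, 1 at D7 and D8 only, and 1 at 2i, D0, D2, D3 and from D6 to D8.

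Rxra, the partner receptor (chromosome 2, 27676445 to 27763319, 86.9 kb), had 25 sites, 13 of them outside the gene body. The lists called 0, 1, 1, 4, 6, 3, 4, 9, 18, 14, 5 and 8 of them. Of all regions near protein-coding genes 26.4% were called at D6, 50.7% at D7 and 40.9% at D8. With equal numbers of peaks per list, fewer Rxra sites were called at D7 and D8. The first site to be called was that at its first start (chr2:27676240-27677943), with 3.07, 5.27, 6.44, 9.32, 3.25, 6.33, 4.78, 6.46, 5.48, 5.59 and 6.03 in the 11 lists from D0 on. A site 31.0 kb after the second start (chr2:27739814-27740784) was called from D2 to D15, with 5.57, 7.04, 4.19, 5.39, 6.43, 10.4, 8.10, 5.31 and 3.54 in list order. A further 2 late-gained sites were chr2:27745524-27746568 from D7 on and chr2:27758170-27758984 from D8 on. The former passed the strict threshold in each list from D7 on and the latter at D15 only. Left of the gene, sites were called over different spans: chr2:27649772-27650702 at D2 and D3, chr2:27640828-27641642 from D4 to D6 and chr2:27636693-27637336 from D6 to D8. Of the 25 sites 10 were called in 1 list, 6 of them in the D7 list. With equal numbers of peaks per list these 6 were called in no list. The farthest summit counted lay 49.884 kb from Rxra (D5, fold enrichment 3.90), and the nearest one left out lay 50.034 kb from it (D8, 3.50), in the same merged region.

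**Figure D4:**
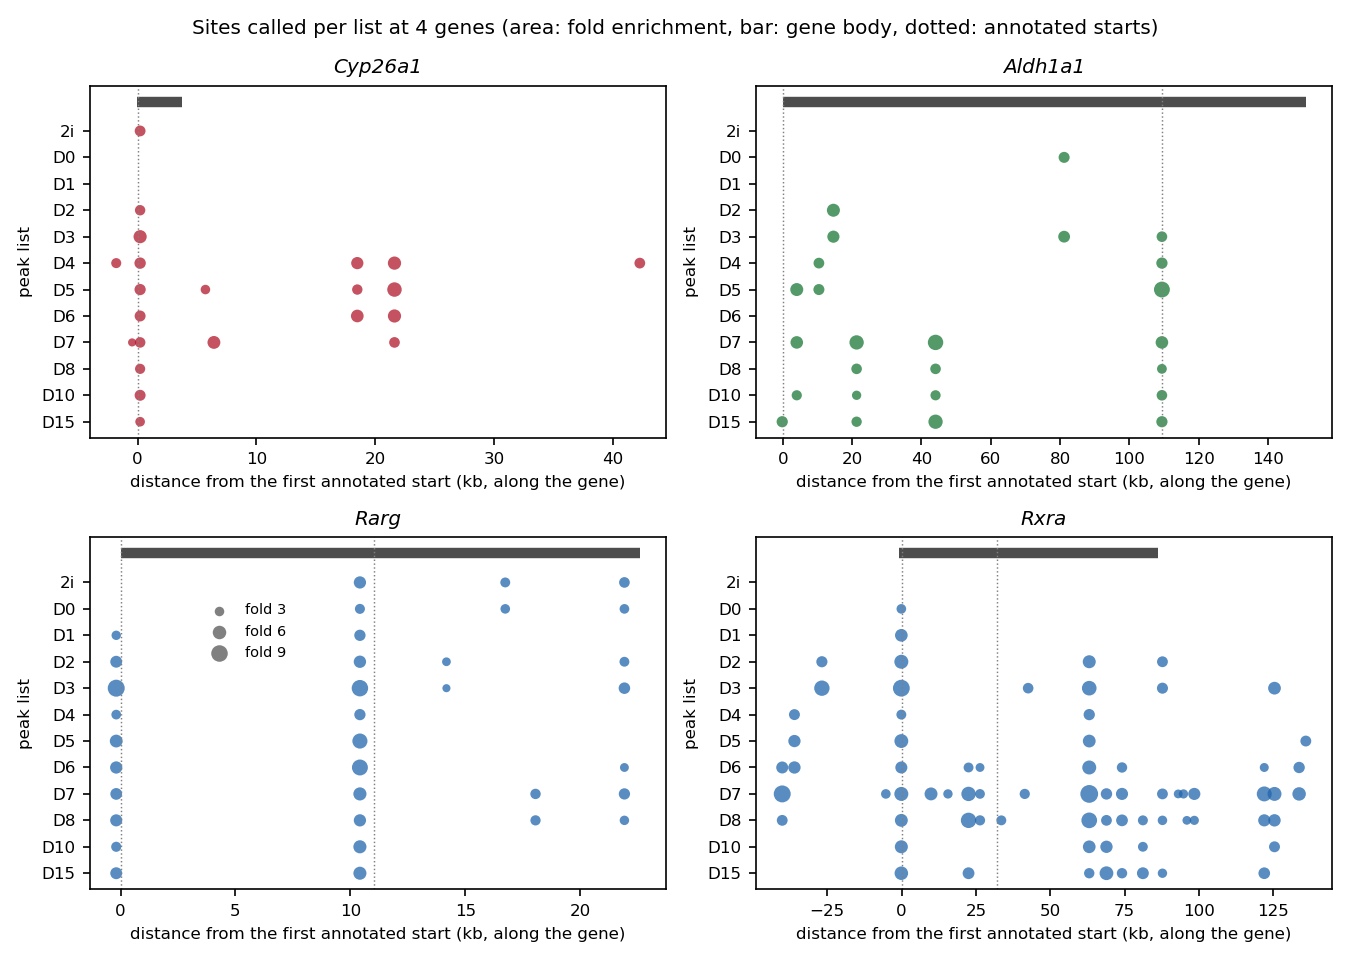
Sites called in each list (rows, 2i at the top) at Cyp26a1, Aldh1a1, Rarg and Rxra against the distance of the site's median summit from the first annotated start in kb along the gene. Dot area is proportional to the authors' fold enrichment, the bar is the gene body and dotted lines are annotated starts; the 2 sites to the right of Cyp26a1 at 18.5 and 21.6 kb are called from D4 on and are not called from D8 on.

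Cyp26a1, the retinoic acid hydroxylase that the receptors induce (chromosome 19, 37697738 to 37701536, 3.80 kb), had no site at D0 or D1, and 4 or 5 at D4, D5 and D7. The shares of all regions near protein-coding genes were 28.4% at D0 and 21.4% at D1. They were 37.4% at D4, 32.4% at D5 and 50.7% at D7. With equal numbers of peaks per list no Cyp26a1 site was called at D7. The start site of the gene (chr19:37697593-37699226) was called at 2i (3.87) and from D2 on, with 3.57, 5.71, 4.27, 4.16, 3.96, 3.69, 3.42, 3.99 and 3.06. The summits with the highest enrichment lay within 258 bases of the start at 2i, from D2 to D6 and at D15, but 1003, 1065 and 1230 bases after it at D7, D8 and D10. It passed the strict threshold at D3, D5, D6 and D7. A pair of sites lies to the right of the gene. The site 18.5 kb after the start (chr19:37716081-37716503) had 4.94 at D4, 3.55 at D5 and 5.29 at D6. The site 21.6 kb after it (chr19:37718985-37719730) had 5.77 at D4, 6.91 at D5, 5.75 at D6 and 3.77 at D7. Both passed the strict threshold at D4, D5 and D6, and both stayed called there when each list was reduced to the same number of peaks. Within the D4 and D6 lists both had a higher fold enrichment than the start site, and within D5 the farther one did. The other 5 sites were called in 1 list each.

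Cyp26b1 (chromosome 6, 84571414 to 84593908, 22.5 kb), a paralogous hydroxylase, had 8 sites and no call within 1 kb of its start. The 5 sites inside the gene overlapped in time. The one 19.6 kb after the start (chr6:84573811-84574605) was called at 2i (5.91), D0 (4.82), D2 (5.10), D3 (10.7) and D5 (3.72). The one 10.1 kb after it (chr6:84583287-84584308) was called at D0, D2, D3 and from D5 to D8, and the one 6.00 kb after it (chr6:84587432-84588078) from D3 to D7. The ones 4.87 and 3.48 kb after it were called from D2 to D7 and at D15, and at 2i and from D6 to D10. Outside the gene, 1 site was called at D7 and D8, 1 at D5 and D7 and 1 at D0. The gene had 1 called site at D10, 1 at D15 and 6 at D7. Of all regions near protein-coding genes 24%, 23.6% and 50.7% were called in these lists. With equal numbers of peaks per list, only the site 10.1 kb after the start stayed called at D7. The D10 call 3.48 kb and the D15 call 4.87 kb after the start also stayed.

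Cyp26c1 (chromosome 19, 37685112 to 37693320, 8.21 kb), the third hydroxylase, lies left of Cyp26a1 with no other protein-coding gene between them, so summits in the gap were given to the nearer gene. It had 3 sites, all inside the gene or across its end. The one 1.54 kb after the start (chr19:37686631-37687553) was called at 2i, D0, D2, D3 and from D5 to D8, and the other 2 at D6 and D7 and at D7 and D8. No Cyp26c1 site was called at D1, D4, D10 or D15. The 3 degradation genes had 19 sites together. None of these was late-gained, against 4.1% of all regions near protein-coding genes, which for 19 sites is near that share. None was called in all 12 lists, against 11.4% of regions, a difference that rests on 19 sites and was not tested.

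Several genes shared a time pattern. The patterns were picked after their values were seen. Sites called at D4, D5 and D6 and in no other list numbered 4 (3.25%), against 0.198% of all regions near protein-coding genes, and lay at Aldh1a2, Rarb, Rxra and Cyp26a1. Those at Aldh1a2, Rarb and Cyp26a1 passed the strict threshold in all 3 lists, and that at Rxra at D5 and D6. Sites called at D7, D8, D10 and D15 only numbered 5 (4.07%), against 0.822%, with 2 at Aldh1a1 and 1 each at Rara, Rarb and Rxra. Of these only that at Rxra passed the strict threshold in all its lists, and that at Rarb passed it in none. Sites called at D2 and D3 only numbered 3 (2.44%), against 1.21%, at Aldh1a1, Rarg and Rxra. Only that at Aldh1a1 passed the strict threshold in both lists. Sites called at 2i and D0 only numbered 3 (2.44%), against 2.25%, at Aldh1a2, Rarb and Rarg. None of them passed the strict threshold in both lists. Sites called at D7 and D8 only numbered 6 (4.88%), against 4.61%, which is near the share of regions in general.

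The rest of the pathway was read from a list of 27 genes, all matched by symbol, with 236 sites. Late-gained sites numbered 17 (7.20%, against 4.1% of all regions near protein-coding genes), early-lost sites 17 (7.20%, against 8.76%) and transient sites 38 (16.1%, against 15.7%). Sites in all lists numbered 13 (5.51%, against 11.4%) and sites in 1 list 90 (38.1%, against 39.8%). The early-lost, transient and single-list shares are thus near those of regions in general. By gene, 9 of 27 had a late-gained site (33.3%, against 15.7% of genes), 11 an early-lost one (40.7%, against 27.5%) and 17 a transient one (63.0%, against 39.2%). Of the transport genes, Stra6, the membrane receptor for the retinol carrier, had 3 transient sites, and Lrat, which stores retinol as esters, had 1 early-lost site, called from 2i to D3, and 1 transient site. Rdh10, which makes the retinaldehyde that Aldh1a enzymes use, had 1 site in all lists (chr1:16104042-16106447), 1 early-lost, 1 late-gained and 2 transient. Dhrs3, which reduces retinaldehyde back to retinol, had a late-gained site called from D6 on (chr4:144906188-144907806). Crabp1, a carrier of retinoic acid in the cell, had 3 early-lost sites, and the related Crabp2 had 1 constant and 1 transient site. The early-lost Crabp1 site chr9:54764196-54766254 was still called at D8. Fabp5, which can also carry retinoic acid, had 1 late-gained site, called from D7 on, beside 1 constant and 1 transient site.

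Of the other receptors, Rxrb had a single site, called in all 12 lists, and Rxrg had 10, 1 of them transient. Of the cofactors, the coactivator gene Ncoa2 had 1 late-gained and 3 transient sites. Of the known targets, Hoxb1 had 4 late-gained sites, the earliest called from D3 on (chr11:96396877-96397863), and 2 transient ones. Meis2 had 7 transient and 4 early-lost sites and Meis1 had 3 late-gained and 4 transient ones. The early-lost Meis2 site chr2:116020477-116021621 was called in every list up to D8. Meis2 had 29 sites and Meis1 23, so their counts are also those of genes with many sites.

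Other genes ran a similar course over the lists. Of the 8393 protein-coding genes with at least 20 summits, those with the highest Spearman's rho with the receptor genes' summits per 1000 peaks over 12 lists were Igf2 (0.97), Arhgap29 (0.97) and Cyp2s1 (0.97). For the degradation genes they were Pde4c (0.96), Lhx1 (0.94) and Shank1 (0.94), and for the synthesis genes Atp6v1c1 (0.89), Zbtb10 (0.89) and Mgat4e (0.87). These values describe 12 lists whose length and coverage are common to all genes, and were picked as the highest of 8393, with no test.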

How the data were processed

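The 12 deposited peak lists, 1 per time point for 2 replicates, were made by the authors on mm10. The submitters' processing notes name MACS2 2.1.1, Bowtie2 2.3.2, cutadapt 2.10, Picard and SAMtools 1.5, with no order or settings. Read depth, any shift for the transposase and how replicates were combined are not stated there. Each deposited peak has a fold enrichment (a linear ratio) and, from the authors' peak caller, a p-value and a q-value, both as −log10. The lists start at a −log10 q between 1.30 and 1.31.

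Summits were assigned to gene bounds of RefSeq (GRCm38.p6) and intervals that overlap or abut were merged across lists in Python 3.11.15. The assignment, merging and classes were checked on simulated peaks. All 10 genes were named, with their constant, time-class and longest-called sites. Other pathway genes were those with most sites of a class, up to 2 per role, with some named beyond this after their values were seen, and 3 genes of similar course per role. One gene that this rule names is not reported here. The members, lists and classes were chosen with earlier results of these data known. A genome sequence was not used here, so motifs were searched only in promoter windows of the RefSeq table. Alternatives were a −log10 q of at least 5, equal numbers of peaks (the 31324 of highest −log10 p per list), distances of 20 and 100 kb, another rule for overlap, summits joined within 250 bp, and lists left out.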

Additional observations from a re-analysis of the deposited data

How the results depend on the processing

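The counts of sites moved with the peak threshold, the number of peaks kept per list and the choice of genes. With a −log10 q of at least 5 the 123 sites became 78 and the 524 summits 302, with 5 late-gained sites against 11, 2 early-lost against 8, 3 called in all lists against 5, 28 called in 1 list against 45, and 150 sites at other pathway genes against 236. With the 31324 highest peaks of each list there were 79 sites, 325 summits, 3 early-lost, 17 transient (against 26) and 27 sites called in 1 list. Of the 79 sites 21.5% were transient, against 11.2% of 61679 regions, and 12.7% late-gained, against 6.31%. Early-lost sites made up 3.8%, against 8.56%, and sites in 1 list 34.2%, against 36.4%. The sites called at D7 became 23, against 72, and at D8 24, against 52. Without the D7 list 16 transient sites were left. Without Rarb and Rxra, a choice made after seeing the data, there were 61 sites, 330 summits, 6 late-gained, 5 early-lost, 15 transient and 16 sites called in 1 list. Assignment within 20 or 100 kb, any overlapping peak as a call, summits joined within 250 bp and leaving out the D4 list kept each of these counts within 1.5 times. Of 634 counts by gene or by list, 532 stayed within 1.5 times and 102 did not. The cause of these shifts was not tested, except that stricter settings keep fewer peaks. No paired analysis was possible because each time point has 1 peak list for both replicates, and for the same reason no replicate could be left out. Depth is unknown, so a site not called, as at Cyp26b1's start, is not shown to be closed.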
